A study of Homo sapiens with 24 samples.

Results

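The averaged effect of miR-28 is the difference between miR-28-expressing and control cells of the Burkitt lymphoma line P3HR1 over both times of induction. It was taken from all 12 arrays titled as miR-28 and all 12 titled as control, 24 of the 24 arrays of the study, with time as a fixed term. Genes that passed over both times were set apart as shared by a further condition. Their population means had to separate the genotypes in the same direction at each time.

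P3HR1 is an established B-cell line from a Burkitt lymphoma. All cells carried the vector pRTS1 and were induced with doxycycline for 12 h or 24 h. In control cells the vector encoded only GFP, a fluorescent marker protein, and in miR-28 cells it encoded GFP and the miR-28 precursor. Each genotype had 2 bulk populations, A and B, and each population was induced 3 times for each time. This gave 4 groups of 6 arrays, namely control at 12 h, miR-28 at 12 h, control at 24 h and miR-28 at 24 h. The treatment field and the design text give the dose of doxycycline as 0.1 ug/ml, and the source field gives 1 ug/ml, in the same way for both genotypes. Every array was of induced cells, so a difference that the populations already had before induction cannot be told apart from an effect of the precursor. Replicate arrays are inductions of only 2 populations a genotype, and p-values measure the spread among them.

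MicroRNAs are short RNAs that guide Argonaute proteins to transcripts, mostly through pairing of the seed at their 5′ end, and lower the translation and the stability of those transcripts. A precursor hairpin is cut by DICER1, and either of its strands can be loaded. The human miR-28 hairpin lies in an intron of LPP, a gene for a protein of cell adhesions, and gives miR-28-5p and miR-28-3p. In B cells miR-28 is known from germinal centre cells, and its expression is low in several lymphomas derived from them.

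The mature 3p strand is shown because it is a strand made from the induced precursor, with the seed, bases 2 to 8 from the 5′ end, in capitals.
hsa-miR-28-3p: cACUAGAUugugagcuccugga
It is 22 bases long and lies on the plus strand at chr3:188688834-188688855 of GRCh38.p14 (sequence from RefSeq). Among the 2545 mature human miRNAs of that table, 1 has this seed. The level of the mature strands was not analysed here.

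Intensities were similar in range on the 24 arrays, with a median per array between 73.37 and 93.41, and arrays of a group correlated at 0.954 to 0.969 across genes. Median intensity was 9219 for the markers of B cells, 68.9 for T-cell, 40.6 for NK-cell, 45.4 for myeloid and 50.4 for fibroblast and epithelial markers. Only 4 T-cell, 2 NK-cell, 2 myeloid and 3 fibroblast and epithelial markers were bright enough to be tested. Limma called 0 of them over both times. Markers of plasma cells had a median intensity of 1890. Of these 5 were tested and 0 called, with all 5 values above 0. The summed intensity of the 8 NK-cell markers ran from 349 to 661 on control and from 448 to 1256 on miR-28 arrays, and that of the 9 T-cell markers from 5445 to 7449 and from 4368 to 6364. Their part in the results below was not tested. A measure of RNA integrity, the log2 ratio of ACTB control probes near the 3′ end to those near the 5′ end, exceeded 1 on 2 arrays, control B2 at 24 h and miR-28 B2 at 12 h.

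Over both times 303 genes rose and 279 fell in miR-28 cells. These were 5.11% of the 11380 genes tested with limma at a Benjamini-Hochberg adjusted p under 0.05 (2.66% for rises and 2.45% for falls), and 2079 genes had an unadjusted p under 0.05. Without the 2 arrays with a high ACTB ratio 248 rose and 238 fell. Most changes were small: 46 rises and 38 falls reached 1.5-fold, and 10 and 5 reached 2-fold. A called gene was counted as shared when both miR-28 population means lay on the same side of both control population means at 12 h and again at 24 h. This left 501 genes (4.4%), 265 rises (2.33%) and 236 falls (2.07%). Among all tested genes, called or not, 7.94% had population means that were higher in this way and 6.16% lower. The shared rises had a median log2 fold change of 0.33, from 0.14 to 1.71, and the shared falls one of -0.34, from -1.25 to -0.13, where all genes tested had a median of 0.02. Ranges given for a gene are its linear probe-set intensities over the 6 arrays of a group, and values with ± are log2 fold changes of miR-28 over control cells with their SE. Counts of called members in the gene lists below are to be read beside the 5.11% called among all genes tested.

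A stricter count asked that each of the 6 miR-28 arrays lie on the same side of each of the 6 control arrays, at 12 h and at 24 h. This held for 45 genes, 16 higher (0.141% of the genes tested) and 29 lower (0.255%). The lower ones were led by SMAD1 (-1.11), DNAJA2 (-0.95), SPCS3 (-0.89), PPM1E (-0.89), LPP (-0.74), RFC3 (-0.73), YWHAH (-0.72), SLC37A4 (-0.72) and the higher ones by GNG2 (1.43), MAML3 (1.26), APOBEC3G (1.01), LZTFL1 (0.93), GSPT2 (0.88), RGS20 (0.76), MREG (0.73), PLAC8 (0.69), each value a log2 fold change of miR-28 over control cells. Small changes were among them as well, such as those of the leukotriene A4 hydrolase gene LTA4H (0.22) and the ubiquitin hydrolase gene UCHL3 (-0.21). PPM1E, LZTFL1 and LTA4H were chosen for naming after these values had been seen.

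**Figure D1:**
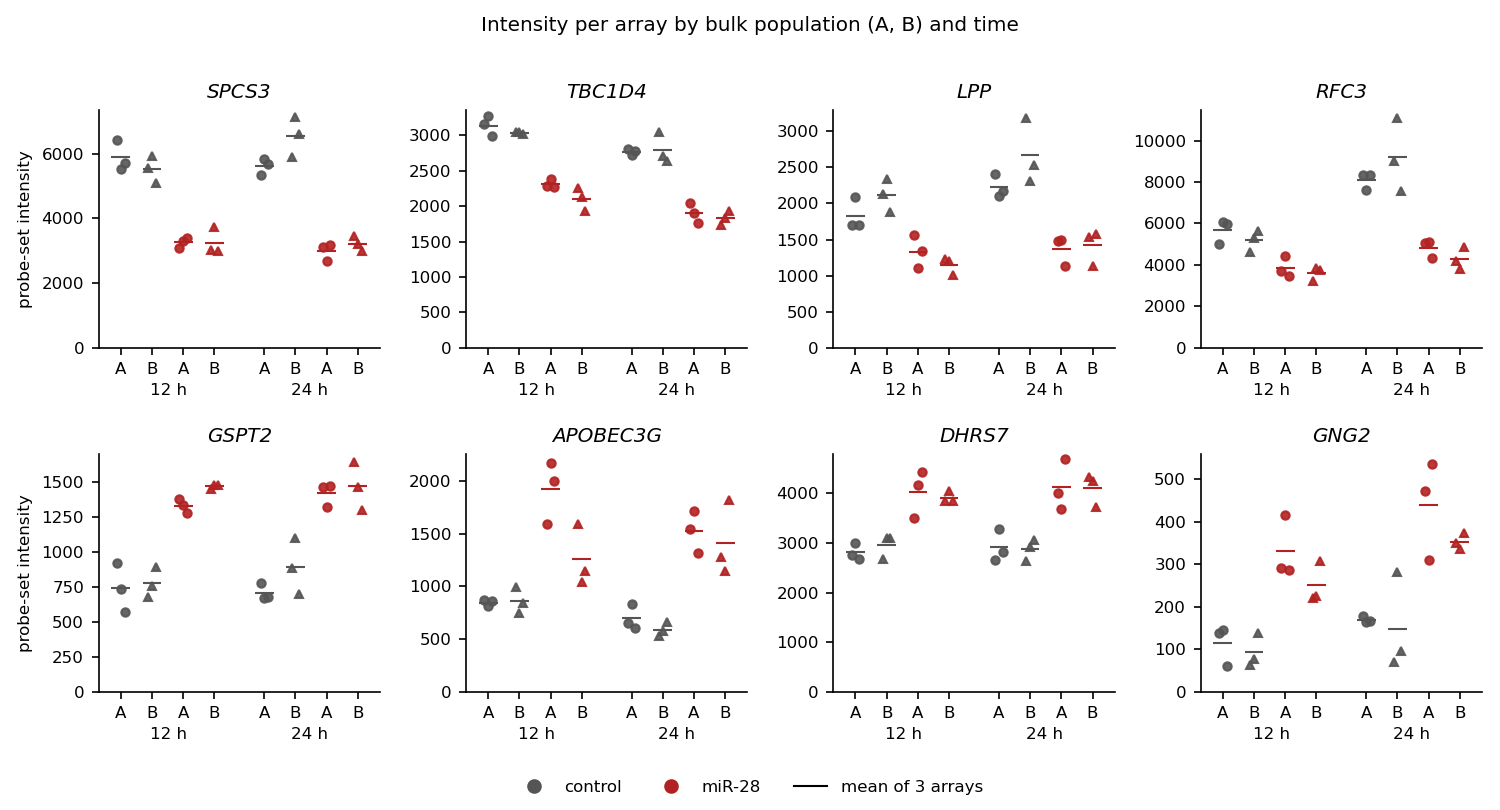
Probe-set intensity (linear scale from 0) of SPCS3, TBC1D4, LPP, RFC3, GSPT2, APOBEC3G, DHRS7 and GNG2 on each of the 24 arrays, by bulk population (A circles, B triangles), genotype (control grey, miR-28 red) and time, with a line at the mean of 3 arrays. In all 8 genes the miR-28 arrays of each time lie on the same side of the control arrays, for SPCS3 at 12 h 2989 to 3747 against 5102 to 6412.

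The change with the smallest p was that of a single gene of entry into the secretory pathway. SPCS3, part of the signal peptidase that cuts leader peptides from new secretory proteins, fell by 0.89 ± 0.06 (SE of the log2 fold change, from 12 arrays of each genotype; adjusted p by limma 1.36e-09). SPCS3 at 12 h gave 5102 to 6412 (median 5639.6) in control cells and 2989 to 3747 (median 3192) in miR-28 cells. SPCS3 at 24 h gave 5335 to 7124 (median 5879) in control cells and 2674 to 3459 (median 3140.4) in miR-28 cells. The groups did not overlap at either time, and the 4 pairings of a miR-28 with a control population gave -0.95 to -0.83. These values are from the brightest of 3 probe sets. The dimmer ones gave -0.03 ± 0.08 and -0.16 ± 0.06, and neither was called (adjusted p by limma over all probe sets 0.932 and 0.241). The called fall thus rests on 1 of the 3 probe sets.

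SRPRB, the membrane-bound subunit of the signal recognition particle receptor, fell by 0.35 ± 0.05 (adjusted p 0.000206). Its other probe sets gave -0.09 ± 0.12 and -0.03 ± 0.10, so the fall was seen on the brightest probe set only. SPCS3 and SRPRB were the 2 called members of a list of 28 measured genes of signal peptidase, translocon and oligosaccharyl transfer. This was 7.14%, against 5.11% of all genes tested, and the list median was 0.01. TRAM2, a translocon-associated gene that is not in the list, also fell and is described with the genes called at neither time. Of 20 genes of folding and the unfolded protein response 3 fell (15%), all 3 shared, and the median was -0.04. EDEM1, which directs misfolded glycoproteins to degradation, fell by 0.43 ± 0.06 (adjusted p 5.17e-05). EDEM1 at 12 h gave 2049.8 to 2508 (median 2291) in control cells and 1490.0 to 1884 (median 1691) in miR-28 cells. EDEM1 at 24 h gave 1808 to 2432 (median 1940.4) in control cells and 1308 to 1804 (median 1457) in miR-28 cells. Its 12 h and 24 h changes were alike, at -0.44 and -0.42, and its groups did not overlap at either time. MANF, a secreted factor of the same stress response, fell by 0.28 ± 0.06, and HSPA5, the main chaperone of the compartment, by 0.16 ± 0.04.

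Cytosolic chaperones had 2 falls among 19 measured (10.5%), with a list median of -0.07. DNAJA2, a co-chaperone that hands clients to HSP70, fell by 0.95 ± 0.13 (adjusted p 5.56e-05). DNAJA2 at 12 h gave 1740.4 to 2895 (median 2113) in control cells and 955 to 1539 (median 1335) in miR-28 cells. DNAJA2 at 24 h gave 2081 to 3996 (median 2648) in control cells and 949 to 1565 (median 1176) in miR-28 cells. A second DNAJA2 probe set of similar brightness gave 0.05 ± 0.11, so the fall was seen on only 1 of its 2 probe sets. The other fall was that of BAG1, described with the published targets.

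SLC37A4, the carrier of glucose 6-phosphate into the endoplasmic reticulum, fell by 0.72 ± 0.07 (adjusted p 3.41e-06), and a second probe set gave -0.84 ± 0.19. SLC37A4 at 12 h gave 812 to 1038 (median 929) in control cells and 499 to 782 (median 610.1) in miR-28 cells. SLC37A4 at 24 h gave 889 to 1145 (median 944) in control cells and 454 to 619 (median 543) in miR-28 cells. Each miR-28 array lay below each control array of its time. PEX2, a ubiquitin ligase of the peroxisome membrane, fell by 0.58 ± 0.06 (adjusted p 3.41e-06), with pairings of populations from -0.59 to -0.56. PEX2 at 12 h gave 1477 to 1685 (median 1513) in control cells and 1019 to 1218 (median 1161) in miR-28 cells. PEX2 at 24 h gave 1332 to 1619 (median 1503) in control cells and 759 to 1093 (median 901) in miR-28 cells. Its groups were separate at both times too. The dimmer probe sets of PEX2 gave -0.28 ± 0.12 and -0.09 ± 0.27. Neither was called (adjusted p by limma over all probe sets 0.248 and 0.931). HDLBP, an RNA-binding protein with many KH domains, fell by 0.68 ± 0.07 (adjusted p 3.41e-06), and its 3 other probe sets lay between -0.68 and -0.30. GLRX, a glutaredoxin that reduces protein disulfides, fell by 0.78 ± 0.11 (adjusted p 0.000167; second probe set -0.57 ± 0.07). G3BP2, a stress granule protein, fell by 0.64 ± 0.08 (other probe sets -0.32 ± 0.08 and -0.33 ± 0.12), and the 14-3-3 gene YWHAH by 0.72 ± 0.10.

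Among 30 RAB GTPases and their regulators, which direct vesicles between membranes, 3 fell and 1 rose (13.3% called). All 4 were shared, and the list median was 0.02. TBC1D4, a GTPase-activating protein for RABs, fell by 0.53 ± 0.04 (adjusted p 3.86e-08), with a second probe set at -0.32 ± 0.11. TBC1D4 at 12 h gave 2987 to 3278 (median 3045) in control cells and 1934 to 2382 (median 2266) in miR-28 cells. TBC1D4 at 24 h gave 2638 to 3053 (median 2747) in control cells and 1733 to 2052 (median 1865) in miR-28 cells. The spread within its groups was narrow and the groups did not overlap. RAB8B, a GTPase of transport to the plasma membrane, fell by 0.67 ± 0.08 (adjusted p 1.26e-05), while its dimmer probe sets gave 0.10 ± 0.10 and -0.48 ± 0.16. The endosomal RAB14 fell by 0.28 ± 0.07 and RAB5B rose by 0.31 ± 0.08. Of 19 RAP and RAS genes and regulators, RAP1B was the only one called.

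Heterotrimeric G proteins and the RGS proteins that shorten their signals changed in both directions, with 3 rises and 2 falls among 22 genes and a median of 0.00. RGS13, an RGS gene of germinal centre B cells, fell by 0.89 ± 0.15 (adjusted p 0.000653), with -0.66 ± 0.16 on its second probe set. RGS13 at 12 h gave 2088 to 5447 (median 3509.7) in control cells and 1539 to 1929.6 (median 1846) in miR-28 cells. RGS13 at 24 h gave 3037 to 6583 (median 4233) in control cells and 1899 to 3309 (median 2496) in miR-28 cells. The groups were separate at 12 h and overlapped at 24 h. RGS2 fell by 0.48 ± 0.12. RGS20 rose by 0.76 ± 0.09 (adjusted p 8.8e-06; second probe set 0.79 ± 0.18). RGS20 at 12 h gave 337 to 461 (median 374) in control cells and 487 to 654 (median 558) in miR-28 cells. RGS20 at 24 h gave 271 to 397 (median 299) in control cells and 471 to 751 (median 623) in miR-28 cells. Here the groups did not overlap at either time. GNG2, a gamma subunit, had the largest rise of the list, 1.43 ± 0.19 (adjusted p 5.17e-05). GNG2 at 12 h gave 59.7 to 146 (median 107) in control cells and 221 to 416 (median 289) in miR-28 cells. GNG2 at 24 h gave 69.3 to 282 (median 165) in control cells and 311 to 535 (median 362) in miR-28 cells. The GNG2 groups were separate too, but at a low intensity, and its dimmer probe set gave -0.10 ± 0.27. GNG7 rose by 0.37 ± 0.10 and was not shared.

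SMAD1, which carries signals of bone morphogenetic proteins to the nucleus, fell by 1.11 ± 0.13 (adjusted p 1.16e-05; second probe set -0.89 ± 0.16). SMAD1 at 12 h gave 690.1 to 1064 (median 864) in control cells and 389 to 475 (median 419) in miR-28 cells. SMAD1 at 24 h gave 633 to 1199 (median 729) in control cells and 238 to 491 (median 344) in miR-28 cells. Its miR-28 arrays lay below all control arrays at both times. Of 18 genes of these pathways the only other call was SMURF2, a ubiquitin ligase for SMAD proteins, at -0.35 ± 0.09 and not shared. That call was lost without miR-28 array A2 at 24 h (adjusted p 0.0505). In the Notch list of 11 genes the coactivator MAML3 rose by 1.26 ± 0.18 (adjusted p 0.000122), and the protease ADAM17, which sheds membrane proteins, fell by 0.39 ± 0.06 (adjusted p 0.000345). MAML3 at 12 h gave 157 to 373 (median 242) in control cells and 384 to 889 (median 582) in miR-28 cells. MAML3 at 24 h gave 164 to 317 (median 249) in control cells and 406 to 867 (median 630.1) in miR-28 cells. The groups of MAML3 did not overlap.

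Of 26 measured genes of origin licensing and firing 11 fell and 0 rose, with a median of -0.22, and 24 of the 26 values were below 0. Of 25 genes of replication polymerases, clamp and clamp loaders 8 fell and 0 rose, with a median of -0.20. Only 4 genes of each list were shared. The other calls had population means that were not separate at every time. The list medians were -0.13 and -0.09 at 12 h, against -0.29 and -0.29 at 24 h, and over both times 5196 of the 11380 genes tested had a value below 0. In bulk RNA, fewer cells in S phase and less of these transcripts in each cell cannot be told apart.

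RFC3, a subunit of the clamp loader that places PCNA on DNA, stood lowest in the fork list with a fall of 0.73 ± 0.08 (adjusted p 7.06e-06). RFC3 at 12 h gave 4599.9 to 6058 (median 5471) in control cells and 3235 to 4424 (median 3739) in miR-28 cells. RFC3 at 24 h gave 7574 to 11072 (median 8324) in control cells and 3783 to 5108 (median 4592) in miR-28 cells. The groups did not overlap, and a second probe set gave -0.75 ± 0.08. The other loader subunits that fell did so by less, RFC4 at -0.28 ± 0.07 and RFC2 at -0.25 ± 0.07. The clamp PCNA itself fell by 0.26 ± 0.06, the polymerase subunits POLE2 and POLA1 by 0.28 ± 0.06 and 0.23 ± 0.07, and the primase subunit PRIM1 by 0.31 ± 0.06. RFC3, RFC2, POLE2 and POLA1 were the shared ones.

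In the licensing list DTL, which targets the licensing factor CDT1 for degradation, fell by 0.41 ± 0.07 (adjusted p 0.000642; second probe set -0.44 ± 0.07). DTL at 12 h gave 2371 to 3317 (median 2724) in control cells and 1955 to 2545 (median 2261) in miR-28 cells. DTL at 24 h gave 3645 to 5028 (median 4512) in control cells and 2676 to 3412 (median 3118) in miR-28 cells. DTL arrays of the genotypes overlapped at 12 h and were separate at 24 h. The kinase gene CDC7 fell by 0.34 ± 0.07, TOPBP1 by 0.31 ± 0.07 and the helicase subunit MCM6 by 0.22 ± 0.05, and these and DTL were shared. MCM10 (-0.42 ± 0.08), ORC1 (-0.33 ± 0.08), GINS1 (-0.30 ± 0.07), GINS2 (-0.28 ± 0.06), GINS3 (-0.26 ± 0.07), MCM4 (-0.28 ± 0.08) and MCM5 (-0.22 ± 0.06) fell but were not shared. MCM10 for instance gave 1218 to 1605 (median 1423) in control cells and 926 to 1491 (median 1176) in miR-28 cells at 12 h, where the genotypes overlapped, and 2173 to 2493 (median 2290.3) in control cells and 1342 to 1691 (median 1643) in miR-28 cells at 24 h, where they did not. Median centring of the arrays gave 5 falls in the licensing list and 4 in the fork list, and the licensing count was 8 to 11 when any single array was left out. The fork count was 5 in 10 of the 24 fits without 1 array: control A2 or A3 or miR-28 B1 at 12 h, and control A1, A3, B1 or B3 or miR-28 A2, A3 or B1 at 24 h. With the 12 h arrays alone both lists had 0 falls, and with the 24 h arrays alone 10 and 5. Counts were uneven between populations. Licensing falls were 1 without control population A, 0 without miR-28 population B, 0 with miR-28 A against control B, 0 with the population A arrays alone and 1 with the population B arrays alone. They were 7 without control population B, 9 without miR-28 population A and 7 with miR-28 B against control A. In the same order the fork list gave 1, 1, 0, 1 and 1, and then 8, 5 and 3. The list medians were below 0 in these 8 population settings, from -0.31 to -0.13 for licensing and from -0.31 to -0.10 for the fork. In each list the 2 called genes with the smallest p were named by rule, and other members were picked for naming once their values had been seen.

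The 3 falling replication genes RFC3, DTL and GINS2 are shown with the 250 bases before their start site. E2F factors are known to switch on genes of this kind through sites close to the start. The 3 genes had the smallest p among the called licensing and fork genes that hold the letters given next. A match in each was therefore fixed by the choice, and called genes without one, such as MCM10 and PRIM1, were passed over. Letters in capitals are matches to TTTCCCGC, TTTCGCGC, TTTGCCGC or TTTGGCGC on either strand, each sequence is written on the strand of its gene, and the sequences are from RefSeq on GRCh38.p14.
RFC3: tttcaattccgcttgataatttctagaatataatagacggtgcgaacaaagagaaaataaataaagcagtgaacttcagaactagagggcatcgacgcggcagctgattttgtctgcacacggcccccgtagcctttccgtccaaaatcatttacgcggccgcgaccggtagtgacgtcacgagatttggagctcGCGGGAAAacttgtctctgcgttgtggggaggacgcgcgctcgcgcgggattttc
DTL: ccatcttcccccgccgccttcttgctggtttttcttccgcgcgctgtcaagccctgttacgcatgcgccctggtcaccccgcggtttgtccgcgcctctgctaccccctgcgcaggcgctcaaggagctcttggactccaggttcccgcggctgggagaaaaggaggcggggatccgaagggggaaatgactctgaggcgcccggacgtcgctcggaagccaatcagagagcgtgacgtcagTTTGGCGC
GINS2: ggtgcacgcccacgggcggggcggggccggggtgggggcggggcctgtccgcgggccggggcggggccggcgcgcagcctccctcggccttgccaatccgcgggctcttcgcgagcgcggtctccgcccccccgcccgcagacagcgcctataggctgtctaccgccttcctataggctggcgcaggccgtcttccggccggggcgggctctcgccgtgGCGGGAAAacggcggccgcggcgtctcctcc
The RFC3 window is chr13:33817899-33818148 on the plus strand, with its match 55 bases before the start. DTL lies at chr1:212035498-212035747 on the plus strand, with the match 8 bases before the start, and GINS2 at chr16:85688955-85689204 on the minus strand, 31 bases before it. Such a match was found in 761 of all 27305 promoter windows of this length (2.79%) and in 405 of the 9285 tested genes with a window (4.36%). It was found in 7 of 23 licensing genes and 6 of 21 fork genes, in 15 of 210 shared falls (7.14%) and in 3 of 227 shared rises (1.32%). Of the called genes with a window, 3 of 9 licensing and 3 of 7 fork genes had it. The letters TTTGAA on either strand were also searched. They were in 22 of 210 shared falls (10.5%) and 23 of 227 shared rises (10.1%). Among the tested genes with a window 834 of 9285 had them (8.98%), and among all windows 3704 of 27305 (13.6%). They were in 0 of 23 licensing and 1 of 21 fork genes. In the lists of mitosis described below they were in 16 of 30 G2 and mitosis regulators and 6 of 26 checkpoint and kinetochore genes. A match is a description of the letters and not a bound site.

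Of 22 regulators of entry into S phase 4 fell and 0 rose, with a median of -0.19. CCND3, the D-type cyclin that activates CDK4 and CDK6, fell by 0.67 ± 0.08 (adjusted p 1.99e-05). CCND3 at 12 h gave 4783 to 7884 (median 6432) in control cells and 3834 to 4969 (median 4582) in miR-28 cells. CCND3 at 24 h gave 9046 to 11566 (median 10315) in control cells and 4381 to 6455 (median 5709) in miR-28 cells. The genotypes overlapped slightly at 12 h and were far apart at 24 h, with a control median of 10315 against 6432 at 12 h. The activator E2F2 fell by 0.62 ± 0.07 (adjusted p 1.18e-05), with no overlap at either time. E2F2 at 12 h gave 1351 to 1749 (median 1484) in control cells and 913 to 1237 (median 1072) in miR-28 cells. E2F2 at 24 h gave 2071 to 2617 (median 2392) in control cells and 1079 to 1806 (median 1391) in miR-28 cells. Dim probe sets of E2F2 gave -0.01 ± 0.18 and -0.24 ± 0.31. The repressor E2F7 fell by 0.36 ± 0.09 without being shared, and TFDP1, the partner of E2F factors, fell by 0.14 ± 0.04 and was shared.

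Few genes of mitosis passed over both times. Of 36 regulators of G2 and mitosis 4 fell, with a median of -0.15 over both times that was 0.00 at 12 h and -0.28 at 24 h. ANLN, a scaffold of the cleavage furrow, fell by 0.43 ± 0.07 (adjusted p 0.000658) and was shared, as were MYBL2 (-0.35 ± 0.09) and the condensin subunit NCAPG (-0.21 ± 0.06), while FOXM1 (-0.28 ± 0.08) was not. ANLN at 12 h gave 875 to 1264 (median 954) in control cells and 678 to 908 (median 784) in miR-28 cells. ANLN at 24 h gave 1034 to 1305 (median 1179.9) in control cells and 675 to 1055 (median 816) in miR-28 cells. ANLN arrays overlapped at 12 h and by a narrow margin at 24 h. The list held 2 calls in 6 of the 24 fits that each left out 1 array, among them that without control array A1 at 24 h, and 7 without control array B3 at 12 h. Of 32 spindle checkpoint and kinetochore genes 4 fell, with a median of -0.13 and -0.01 at 12 h. SKA1, a subunit of the complex that couples kinetochores to microtubules, had the largest shared fall of the genes tested, 1.25 ± 0.16 (adjusted p 2.07e-05). SKA1 at 12 h gave 459.5 to 907 (median 577) in control cells and 185 to 471 (median 292) in miR-28 cells. SKA1 at 24 h gave 715 to 1183 (median 940.4) in control cells and 193 to 484 (median 361) in miR-28 cells. The groups of SKA1 overlapped by a narrow margin at 12 h and not at 24 h, and its 4 pairings of populations gave -1.63 to -0.86. Its partner SKA3 fell by 0.36 ± 0.08. The kinesin gene CENPE fell by 0.27 ± 0.08 and was not shared. MAPRE1, which binds growing microtubule ends, fell by 0.57 ± 0.08 (adjusted p 0.00017; second probe set -0.51 ± 0.07), alone among 12 genes of its list. MAPRE1 at 12 h gave 9041 to 12796 (median 11071) in control cells and 7477 to 9921 (median 8713) in miR-28 cells. MAPRE1 at 24 h gave 10246 to 13182 (median 11669) in control cells and 6168 to 6886 (median 6589.8) in miR-28 cells. The MAPRE1 arrays overlapped at 12 h and not at 24 h.

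Of 19 genes of homologous recombination and Fanconi repair 2 fell (10.5%). The helicase gene BLM fell by 0.31 ± 0.07 and RAD51C by 0.20 ± 0.05. The list median was -0.20, and 4 fell without control array B3 at 12 h. Of 15 genes of Polycomb repressive complex 2 and DNA methylation 2 fell, the remodeler HELLS by 0.48 ± 0.13 and the methyltransferase EZH2 by 0.27 ± 0.07, with a median of -0.01. The HELLS call was lost in 12 and the EZH2 call in 13 of the 24 fits that each left out 1 array (highest adjusted p 0.06 and 0.0607). In nucleotide synthesis only RRM2, a subunit of ribonucleotide reductase, was called among 12 genes, at -0.21 ± 0.06. It was not shared, and its call was lost in 18 of those 24 fits (highest adjusted p 0.0711).

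**Figure D2:**
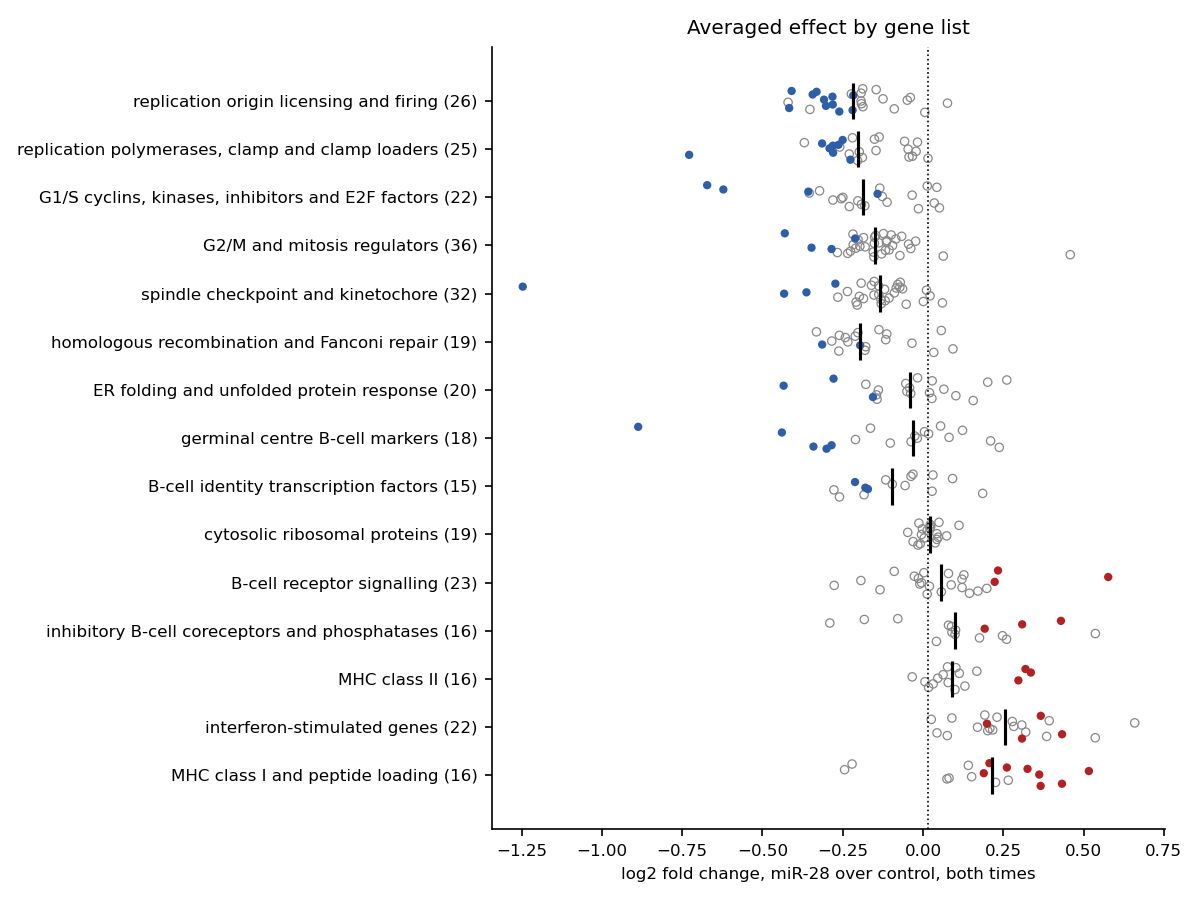
Averaged log2 fold change (miR-28 over control, both times) of each measured gene in 15 lists, with the number measured in parentheses. Filled points passed the test (blue fell, red rose), open points did not, black bars are list medians and the dotted line is the median of all genes tested, 0.02. The replication lists have medians of -0.22 and -0.20, and MHC class I one of 0.22.

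Of 15 transcription factors of B-cell identity 3 fell, all shared: MEF2C by 0.21 ± 0.05 (adjusted p 0.00834), the coactivator POU2AF1 by 0.18 ± 0.05 and the germinal centre repressor BCL6 by 0.17 ± 0.05, with a list median of -0.10. MEF2C at 12 h gave 7407 to 8409 (median 8105) in control cells and 6765 to 7672 (median 6923) in miR-28 cells. MEF2C at 24 h gave 6614 to 7856 (median 7243) in control cells and 5071 to 6629.6 (median 6136) in miR-28 cells. MEF2C arrays of the genotypes overlapped at both times. Of 18 germinal centre markers 5 fell and 0 rose, led by RGS13 and followed by SERPINA9 (-0.44 ± 0.12), ELL3 (-0.34 ± 0.09), LMO2 (-0.30 ± 0.08) and MYBL1 (-0.28 ± 0.07), with a median of -0.03. Median centring left 2 of those calls, and 3 were left without miR-28 array A2 at 24 h. CD24, a surface glycoprotein of B cells, fell by 0.71 ± 0.14 and is described with the genes called at neither time.

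Of 23 genes of B-cell receptor signalling 3 rose, with a median of 0.06. PIK3R3, a regulatory subunit of phosphoinositide 3-kinase, rose by 0.58 ± 0.09 (adjusted p 0.00024; second probe set 0.54 ± 0.18). PIK3R3 at 12 h gave 822 to 913 (median 883) in control cells and 861 to 1271 (median 1092) in miR-28 cells. PIK3R3 at 24 h gave 522 to 718 (median 619) in control cells and 989 to 1279 (median 1137) in miR-28 cells. PIK3R3 overlapped between genotypes at 12 h and was separate at 24 h. The adaptor BANK1 rose by 0.23 ± 0.05, and the kinase BTK by 0.22 ± 0.06 without being shared. Of 16 inhibitory coreceptors and phosphatases 3 rose, CD72 by 0.31 ± 0.06 (adjusted p 0.0021), the phosphatase PTPN22 by 0.19 ± 0.05 and FCRL2, not shared, by 0.43 ± 0.12. Their list median was 0.10, at -0.03 for 12 h and 0.25 for 24 h. Without control array A1 at 24 h only 1 gene of this list was called, and the PTPN22 call was lost in 7 of the 24 fits without 1 array (highest adjusted p 0.0572), those without miR-28 array B1 at 12 h, control A1, B1 or B2 at 24 h, or miR-28 A2, B1 or B2 at 24 h.

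APOBEC3G, a cytidine deaminase that restricts retroviruses, rose by 1.01 ± 0.11 (adjusted p 8.79e-06). APOBEC3G at 12 h gave 748 to 991 (median 852) in control cells and 1038 to 2171 (median 1590.0) in miR-28 cells. APOBEC3G at 24 h gave 533 to 833 (median 627) in control cells and 1150.1 to 1824 (median 1428) in miR-28 cells. No miR-28 array reached down to a control array. IL2RG, the common gamma chain of cytokine receptors, rose by 0.77 ± 0.13 (adjusted p 0.000737). IL2RG at 12 h gave 851 to 1318 (median 1031) in control cells and 1412 to 2235 (median 1689) in miR-28 cells. IL2RG at 24 h gave 529 to 1341 (median 1119) in control cells and 1340.2 to 2049 (median 1669.5) in miR-28 cells. The IL2RG groups were apart at 12 h and touched at 24 h, where the highest control and the lowest miR-28 array were nearly equal. PLAC8, a small cysteine-rich protein of leukocytes, rose by 0.69 ± 0.10 (adjusted p 0.000186) with separate groups. PLAC8 was also the only shared gene that differed between control populations, by 0.47 ± 0.08 (A minus B, adjusted p 0.0355), a gap smaller than its rise. CLEC2B, a C-type lectin, rose by 0.64 ± 0.18 (adjusted p 0.0399), but its groups overlapped widely at 12 h. They overlapped at 24 h as well, with 542 to 1189 in control cells and 778 to 1253 in miR-28 cells. The call was lost in 16 of the 24 fits without 1 array (highest adjusted p 0.0686). Pairings of its populations ran from 0.23 to 1.05.

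Of 16 measured genes of MHC class I and its peptide loading 8 rose and 0 fell, with a median of 0.22. HLA-B rose by 0.43 ± 0.08 (adjusted p 0.00212) and HLA-C by 0.36 ± 0.06 (adjusted p 0.000301). HLA-B at 12 h gave 8038 to 10805 (median 9357) in control cells and 10812 to 14727 (median 11719.7) in miR-28 cells. HLA-B at 24 h gave 6635 to 9466 (median 8428) in control cells and 9156 to 13783 (median 11777) in miR-28 cells. HLA-B arrays of the genotypes were just apart at 12 h and overlapped at 24 h. Class I genes are alike in sequence, so probe sets of HLA-B, HLA-C and HLA-G (0.52 ± 0.13) may share signal. Rises were also found in genes that are not alike, the light chain B2M (0.21 ± 0.06), the proteasome genes PSMB8 (0.26 ± 0.07) and PSME1 (0.19 ± 0.05), the trimming peptidase ERAP2 (0.33 ± 0.10) and the transactivator NLRC5 (0.37 ± 0.11). All but HLA-G were shared. Median centring gave 5 rises in the list, the 12 h arrays alone 0 and the 24 h arrays alone 1. In 15 of the 24 fits without 1 array the list held 3 to 5 rises, with 3 without miR-28 A2 at 12 h, or without control A1 or B1 or miR-28 B1 or B3 at 24 h, and 4 or 5 without control A1 or B1 or miR-28 A3, B1, B2 or B3 at 12 h, or without control B2 or miR-28 A2, A3 or B2 at 24 h. The list median lay between 0.17 and 0.27 in the 4 pairings of a miR-28 with a control population. Of 16 MHC class II genes 3 rose, HLA-DOA by 0.32 ± 0.07, HLA-DQA1 by 0.30 ± 0.07 and the protease CTSS, not shared, by 0.34 ± 0.10, with a median of 0.09.

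All 22 measured interferon-stimulated genes had a value above 0, where 6184 of the 11380 genes tested did. Their median was 0.25, and 4 of them rose. These were IRF9 (0.43 ± 0.08, adjusted p 0.00275), the exonuclease ISG20 (0.37 ± 0.08, adjusted p 0.00558), TRIM22 (0.31 ± 0.07) and SP110 (0.20 ± 0.05), all shared. ISG20 at 12 h gave 3659 to 4652 (median 4398) in control cells and 3974 to 5456 (median 4985) in miR-28 cells. ISG20 at 24 h gave 2815 to 3869 (median 3339) in control cells and 4224 to 5529.9 (median 4662) in miR-28 cells. ISG20 overlapped at 12 h and not at 24 h. The list as a whole was uneven between populations: its median was 0.49 with the population A arrays alone and 0.01 with the population B arrays alone, and 0.23 and 0.30 in the crossed pairings. With the populations of letter B alone 0 of its genes were called, and with those of letter A 3.

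DDIT4, an inhibitor of mTORC1 signalling, rose by 0.56 ± 0.09 (adjusted p 0.00024). DDIT4 at 12 h gave 3530.2 to 6175 (median 4634) in control cells and 4959 to 6479 (median 5979) in miR-28 cells. DDIT4 at 24 h gave 3557 to 4356 (median 4263) in control cells and 6112 to 8078 (median 6926) in miR-28 cells. DDIT4 overlapped at 12 h and was separate at 24 h. It was the only call among 23 genes of the ATF4 response and amino acid metabolism, whose median was 0.03. Of 21 p53 targets 3 rose (14.3%), all shared, with a list median of 0.03. TP53INP1 rose by 0.76 ± 0.14 (adjusted p 0.00186), GADD45A by 0.52 ± 0.09 (adjusted p 0.000639) and GADD45B by 0.34 ± 0.10. GADD45A at 12 h gave 1324 to 1925 (median 1593) in control cells and 1712 to 2681 (median 1987) in miR-28 cells. GADD45A at 24 h gave 1309 to 1792 (median 1425) in control cells and 1986 to 2774 (median 2375) in miR-28 cells. The miR-28 arrays of GADD45A overlapped control arrays at 12 h only. Of 25 caspase and BCL2 family genes 12% were called. CASP8 rose by 0.37 ± 0.08 and BMF, a pro-apoptotic BH3-only protein, by 0.45 ± 0.11. CASP2 fell by 0.21 ± 0.05 and was not shared. JUN rose by 1.18 ± 0.27 from a low intensity. JUN at 12 h gave 109 to 222 (median 186) in control cells and 275 to 384 (median 336) in miR-28 cells. JUN at 24 h gave 10.6 to 188 (median 82.7) in control cells and 140.5 to 266 (median 188) in miR-28 cells. The JUN groups were separate at 12 h and overlapped at 24 h. DUSP16, a phosphatase of JNK and other MAP kinases, rose by 0.48 ± 0.09 and ANKRD44, a regulatory subunit of protein phosphatase 6, by 0.49 ± 0.10.

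GSPT2, which acts in the release of finished proteins from ribosomes, rose by 0.88 ± 0.08 (adjusted p 6.35e-07), the smallest p among the rises. GSPT2 at 12 h gave 571 to 922 (median 743) in control cells and 1274 to 1479 (median 1412) in miR-28 cells. GSPT2 at 24 h gave 669 to 1097 (median 739) in control cells and 1297 to 1641 (median 1462) in miR-28 cells. Its change was 0.89 at 12 h and 0.86 at 24 h, and population pairings gave 0.73 to 1.02. DHRS7, a dehydrogenase of the endoplasmic reticulum, rose by 0.48 ± 0.05 (adjusted p 5.42e-06). DHRS7 at 12 h gave 2667 to 3102 (median 2878) in control cells and 3504 to 4422 (median 3949) in miR-28 cells. DHRS7 at 24 h gave 2643 to 3287 (median 2869) in control cells and 3690.0 to 4682 (median 4133) in miR-28 cells. Both genes were separate at both times. MREG, a protein of organelle transport, rose by 0.73 ± 0.09 (adjusted p 1.16e-05; second probe set 0.66 ± 0.16), and TCEAL4 by 0.60 ± 0.09.

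Other lists held few calls. NF-kB subunits and targets had 1 rise, TNFAIP3 (0.28 ± 0.07), and 1 fall, RELA (-0.24 ± 0.07), among 20 genes, and both calls were lost without some single arrays, in 5 and 17 of 24 fits (highest adjusted p 0.0544 and 0.0782). For TNFAIP3 these arrays were control A1 and B3 and miR-28 A2, A3 and B3, all at 24 h. The MYC list of 20 genes had MXI1 at 0.36 ± 0.09, not shared, and MNT at -0.20 ± 0.06, whose call was lost in 12 fits (highest adjusted p 0.0691). Of 24 genes of glycolysis and hypoxia HK2 fell by 0.31 ± 0.08 and ENO2 rose by 0.49 ± 0.13. Of 17 adhesion genes ICAM2 rose by 0.30 ± 0.09, a call lost in 17 fits (highest adjusted p 0.074). Limma called 0 of 19 cytosolic ribosomal protein genes, with a median of 0.02, and 0 of 13 genes of cholesterol synthesis, with a median of -0.06.

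The 4 targets of miR-28 published from lymphoma cells were picked partly from these same arrays, and their direction is therefore no independent support. RAP1B, a GTPase of adhesion signalling, fell by 0.40 ± 0.06 (adjusted p 0.000221). RAP1B at 12 h gave 14584 to 18449 (median 15521) in control cells and 12488 to 14685 (median 13562) in miR-28 cells. RAP1B at 24 h gave 15761 to 19935 (median 16652) in control cells and 10523 to 12809 (median 11314) in miR-28 cells. The RAP1B arrays overlapped only at 12 h. BAG1, a co-chaperone with a survival function, fell by 0.26 ± 0.06 (adjusted p 0.00567; other probe sets -0.36 ± 0.06 and -0.47 ± 0.07). MAD2L1, the checkpoint protein that holds anaphase until chromosomes are attached, fell by 0.43 ± 0.11 (adjusted p 0.0198; other probe sets -0.43 ± 0.07 and -0.34 ± 0.11) and passed at neither time alone. MAD2L1 at 12 h gave 3877 to 7222 (median 4581) in control cells and 3512 to 4639 (median 3752) in miR-28 cells. MAD2L1 at 24 h gave 4631 to 8725 (median 5987) in control cells and 3378 to 5456 (median 4245) in miR-28 cells. The MAD2L1 control arrays were widely spread and overlapped the miR-28 arrays at both times. RAB23 gave -0.36 ± 0.15 (adjusted p 0.211), which did not pass, with -0.91 ± 0.27 and -0.72 ± 0.32 on dimmer probe sets.

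Of 7 measured targets reported in other cell types 2 fell, and the list median was 0.03. NFE2L2, the regulator of antioxidant genes, fell by 0.56 ± 0.14 (adjusted p 0.0171) and TEX261 by 0.28 ± 0.07 (adjusted p 0.0222). E2F6 gave -0.20 ± 0.06 (adjusted p 0.0663), and N4BP1 (0.04 ± 0.07), OTUB1 (0.08 ± 0.07), HOXB3 (0.07 ± 0.12) and NME1 (0.03 ± 0.05) were not called and changed sign with the populations or probe sets used. LPP, the host gene of the chromosomal miR-28, fell by 0.74 ± 0.09 (adjusted p 8.8e-06). LPP at 12 h gave 1696 to 2333 (median 1983) in control cells and 1014 to 1563 (median 1218) in miR-28 cells. LPP at 24 h gave 2107 to 3184 (median 2359) in control cells and 1128 to 1579.7 (median 1487) in miR-28 cells. LPP groups were separate at both times. Its second brightest probe set gave -0.75 ± 0.11, and the next 0.02 ± 0.16. The remaining, dimmer LPP probe sets lay between -0.67 and -0.22, and none of those was called. Of 12 genes of microRNA processing and silencing DICER1 rose by 0.41 ± 0.09 and TNRC6A by 0.31 ± 0.07, and the Argonaute genes AGO1 and AGO2 fell by 0.40 ± 0.10 and 0.43 ± 0.11, all 4 shared.

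Averaging brought in genes that passed at neither time alone. Of the 582 called genes 41 were also called at both times (of 52 called at 12 h, 0.457%, and 531 at 24 h, 4.67%), 306 at 24 h only and 8 at 12 h only, and 227 at neither. Among the shared genes these were 41, 247, 6 and 207, and the 207 were 121 rises and 86 falls. REC8, a cohesin subunit of meiosis, rose by 0.43 ± 0.08 (adjusted p 0.00167). REC8 at 12 h gave 1143 to 1666 (median 1379) in control cells and 1568 to 2214 (median 2054) in miR-28 cells. REC8 at 24 h gave 1963 to 2461 (median 2181) in control cells and 2206 to 3398 (median 2908) in miR-28 cells. Control arrays of REC8 were higher at 24 h than at 12 h, and the genotypes overlapped at both times. CHPT1, an enzyme of phosphatidylcholine synthesis, rose by 0.47 ± 0.09 (adjusted p 0.00255). CHPT1 at 12 h gave 1613 to 2414 (median 1928) in control cells and 2639 to 2848 (median 2755) in miR-28 cells. CHPT1 at 24 h gave 1452 to 2713 (median 1763) in control cells and 2134 to 3136 (median 2465) in miR-28 cells. CHPT1 was separate at 12 h and overlapped at 24 h, and its pairings of populations ran from 0.19 to 0.75. The ARF GTPase-activating gene ASAP3 rose by 0.53 ± 0.10, the bZIP factor CREB5 by 1.03 ± 0.21 and the phosphodiesterase GDE1 by 0.21 ± 0.04. Pairings of populations ran from 0.54 to 1.52 for CREB5.

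TRUB1, a pseudouridine synthase, fell by 0.47 ± 0.09 (adjusted p 0.00249) with separate groups at both times, as did UCHL3 by 0.21 ± 0.04 (adjusted p 0.00353). UCHL3 at 12 h gave 11038 to 12428 (median 11843) in control cells and 8786 to 10966 (median 10012) in miR-28 cells. UCHL3 at 24 h gave 11741 to 14096 (median 12665) in control cells and 10539 to 11726 (median 11348) in miR-28 cells. The UCHL3 groups had a small spread. CD24 fell by 0.71 ± 0.14 (adjusted p 0.00311), and its 5 other probe sets lay between -0.94 and -0.41. CD24 at 12 h gave 559 to 815 (median 668) in control cells and 287 to 579 (median 397) in miR-28 cells. CD24 at 24 h gave 549 to 1028 (median 665) in control cells and 307 to 665 (median 408) in miR-28 cells. The lowest control and the highest miR-28 arrays overlapped at both times, and the pairings of CD24 populations ran from -1.14 to -0.28. TRAM2, a translocon-associated protein, fell by 0.67 ± 0.13 and PXK by 0.37 ± 0.08.

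**Figure D3:**
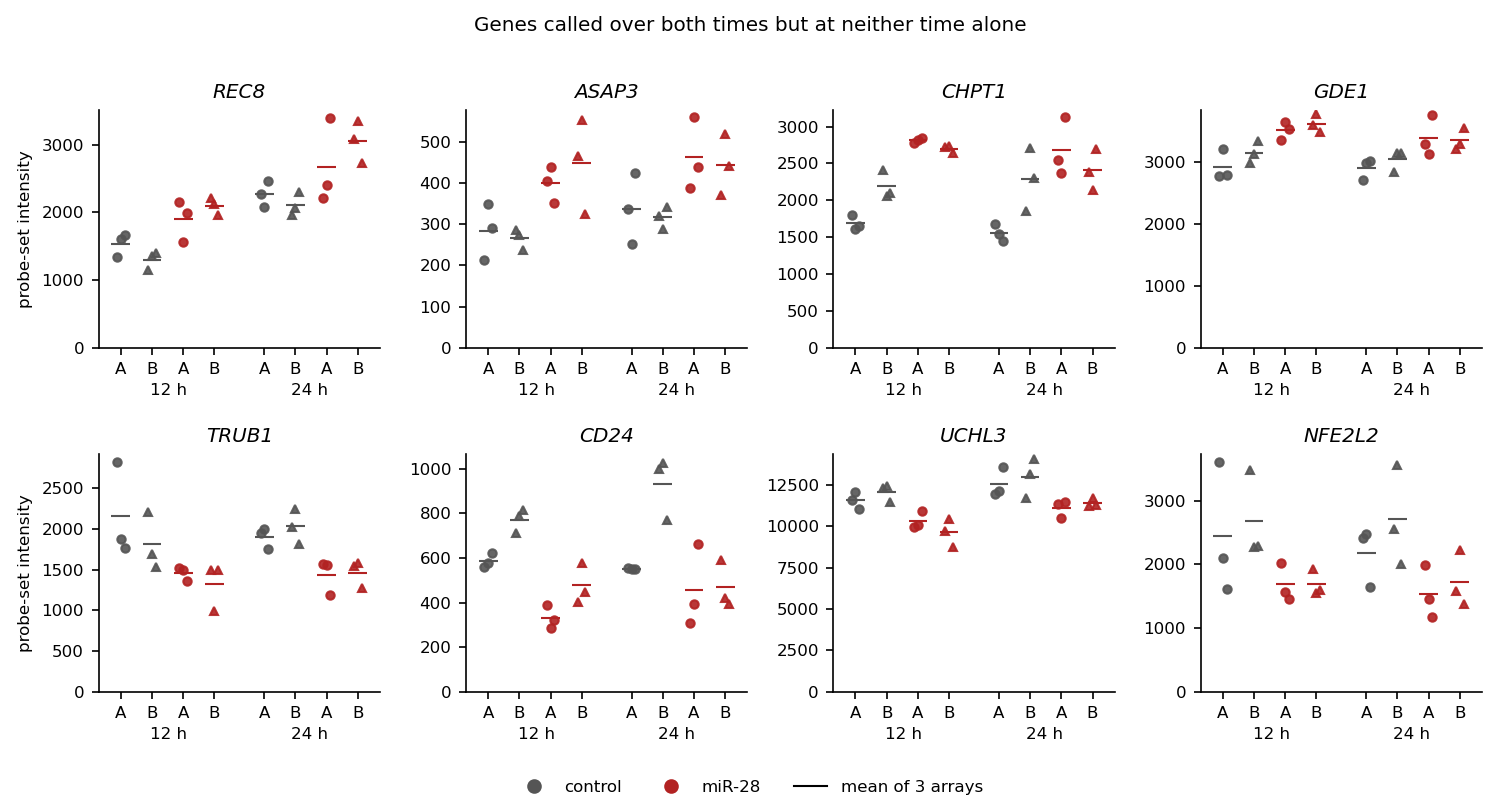
Probe-set intensity (linear scale from 0) of 8 genes called over both times but at neither time alone, on each of the 24 arrays, by bulk population (A circles, B triangles), genotype (control grey, miR-28 red) and time, with a line at the mean of 3 arrays. The miR-28 means lie above the control means for REC8, ASAP3, CHPT1 and GDE1 and below them for TRUB1, CD24, UCHL3 and NFE2L2, with groups that overlap in CD24 (307 to 665 against 549 to 1028 at 24 h) and NFE2L2.

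Shared changes were mostly larger at 24 h. The median change of the shared rises was 0.26 at 12 h and 0.39 at 24 h, that of the shared falls -0.26 and -0.42, and 397 of the 501 were larger at 24 h. Limma called 0 genes for the difference between times (806 of 11380 had an unadjusted p under 0.05, 79 of them shared), so no single gene is shown to differ. EDEM1, GNG2 and RGS13 were among the genes with values as large at 12 h as at 24 h, at -0.44 and -0.42, 1.48 and 1.37, and -1.01 and -0.76. TP53INP1 was at the other end, with 0.32 and 1.20. All but 3 of the genes called at 12 h were also called over both times, whereas 184 of those called at 24 h were not.

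**Figure D4:**
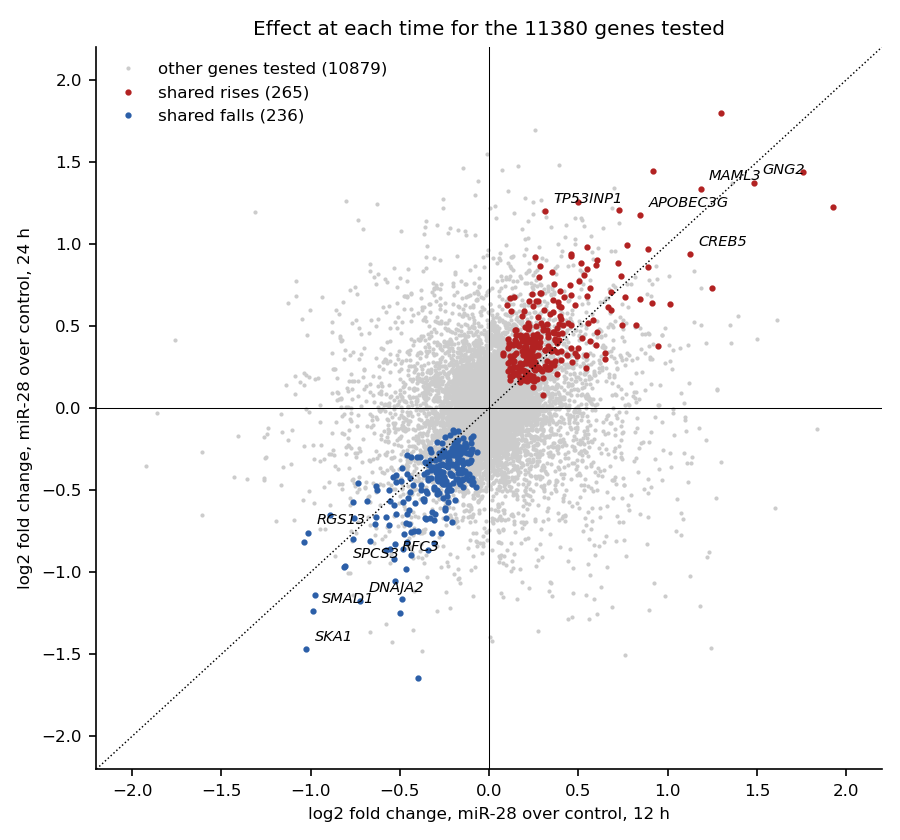
Log2 fold change of miR-28 over control cells at 12 h (horizontal) and at 24 h (vertical) for the genes tested, with the 265 shared rises in red, the 236 shared falls in blue and other genes in grey; 1 gene lies outside the axes, which end at 2.2. Most coloured points lie on the far side of the dotted line of equal change, as 397 of the 501 shared changes were larger at 24 h.

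The 81 called genes that were not shared were 38 rises and 43 falls. The costimulatory ligand gene TNFSF9 rose by 0.84 ± 0.19 (adjusted p 0.0116), yet its control populations differed by -0.94 ± 0.16 (A minus B, adjusted p 0.0296). TNFSF9 at 12 h gave 205 to 799.9 (median 422) in control cells and 413 to 693 (median 574) in miR-28 cells. TNFSF9 at 24 h gave 172 to 392 (median 303) in control cells and 439.9 to 812 (median 676) in miR-28 cells. The overlap at 12 h came with control population B, whose mean of 599 lay between the miR-28 means of 657 (A) and 501 (B). The elongation factor gene AFF1 rose by 0.56 ± 0.13, the noncoding GIRGL by 0.35 ± 0.08 and METAP1D, a mitochondrial methionine aminopeptidase, by 0.33 ± 0.08. Falls of this kind were led by MCM10, PRIM1, TCF19 (-0.47 ± 0.09) and SMIM19 (-0.32 ± 0.06).

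Populations of a genotype differed from each other in few genes. Between control populations A and B limma called 10 genes (0.0879% of those tested; 947 at an unadjusted p under 0.05), and between the miR-28 populations 0 (573 at an unadjusted p under 0.05). The median absolute difference was 0.11 (log2) between control populations and 0.09 between miR-28 populations, each with a median SE of 0.14, against 0.11 with a median SE of 0.10 for the averaged genotype effect. With the 4 population means as the unit, 2 against 2, limma called 0 genes, with 1361 at an unadjusted p under 0.05, and the smallest adjusted p was 0.327.

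Genes chosen with the populations of a single letter were looked up in arrays that had no part in the choice. Falls chosen in population A (33 genes) had the same sign in population B in 31 cases and an unadjusted p under 0.05 as well in 26 (78.8%, where 5.14% of all tested genes had such a fall). Falls chosen in B (48) gave 43 and 35 in A (72.9%, against 5.37%). Among the rises, 18 of 50 chosen in A (36%, against 6.89%) and 18 of 37 chosen in B (48.6%, against 6.56%) passed in the other arrays. The letters are not known to pair control with miR-28 populations, so crossed pairings were read as well. With miR-28 population B against control population A 68 falls and 51 rises were chosen, of which 42 (61.8%) and 27 (52.9%) passed in the remaining arrays. The reverse pairing gave 17 of 26 falls (65.4%) and 16 of 22 rises (72.7%), a share that was higher for rises.

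**Figure D5:**
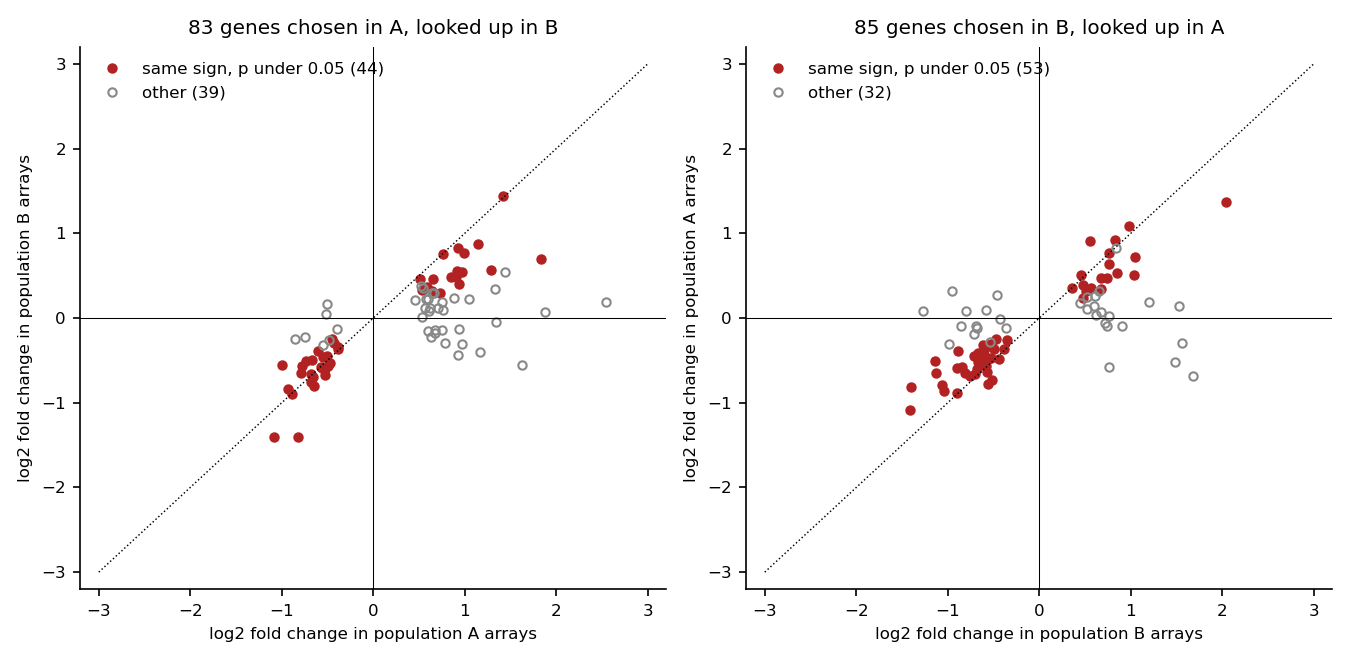
Log2 fold change (miR-28 over control, both times) of 83 genes called with the population A arrays alone, set against their value in the population B arrays (left), and of 85 genes called with population B alone, set against population A (right). Filled points had the same sign and an unadjusted p under 0.05 in the arrays not used for the choice, 26 of the 33 falls and 18 of the 50 rises on the left, and the dotted line marks equal change.

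Of the 501 shared genes 308 had further probe sets above the filter, 575 in all. The sign was the same on 501 of these probe sets (87.1%), and on 273 with an unadjusted p under 0.05, while 1 had the opposite sign at that p. Over all tested genes other probe sets had the same sign in 64.5%. Among the 178 whose brightness was within 1 log2 unit of the one used, 170 had the same sign (95.5%). Brightness also set which changes could pass. The dimmest 3794 genes held 38 shared rises and 12 shared falls, with a median SE of 0.26, and the brightest 3793 held 116 and 152, with a median SE of 0.07. Shared rises had a median size of 0.65 among the dimmest and 0.26 among the brightest genes. At the edge of the call, M6PR (0.32, adjusted p 0.0495) and PITRM1 (0.18, adjusted p 0.0496) lay just inside, and YPEL2 (0.35) and WWOX (-0.26), each at an adjusted p of 0.0501, just outside.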

How the data were processed

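RNA of 24 cultures was measured on Affymetrix arrays. The deposited table holds linear intensity for each probe set, made with MAS5 per the submitters' processing notes, with version and settings not given in the sources used here. Columns had a 2% trimmed mean of 500.07 to 500.08, and this scaling was kept. Precision is limited by the number of arrays and by there being only 2 bulk populations of each genotype.

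Of 54675 probe sets 62 controls were left out. By the platform annotation 41091 had 1 symbol, 1801 several and 11721 none, and the last 2 kinds were not used for genes. Values were taken as log2(intensity + 8), so fold changes of dim genes are understated. Each gene was given by its brightest probe set, and 11380 of 19775 genes had a mean above 6.108, the median of all probe sets. Genotype and time were fitted as additive terms with limma 3.58.1 in R 4.3.3 (21 residual degrees of freedom, empirical Bayes, two-sided, Benjamini-Hochberg adjustment over all genes tested, called at an adjusted p under 0.05). Values for each time came from a fit of the 4 group means. Bulk population was not made a block, because its consensus correlation was -0.0251 and such a block would shrink the errors. The steps were tested on simulated data.

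Same-numbered arrays were not paired: their deviations correlated at -0.0938 to 0.0683 between genotypes and -0.0776 to 0.0695 between times, with 0 of 12 and 0 of 12 pairs above 0.1. The members, gene lists and tests were chosen with earlier results of these data known. Named genes were, among shared genes, the 12 largest rises and falls at or above the median intensity, the 5 each way with the largest statistic, and the 5 each way with the smallest p that were called at neither time. To these were added the 4 called genes each way with the smallest p that were not shared, the 2 called members of each list with the smallest p, and all measured reported targets and the host gene. Alternatives changed the model, scaling, pseudocount, filter, probe-set rule and arrays used, and the 2 crossed population pairings were added after seeing the data. Human promoter and miRNA sequences were taken from RefSeq tables on GRCh38.p14 and matched by symbol.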

Additional observations from a re-analysis of the deposited data

Results flagged for a closer look

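For the 102 genes named by rule, and for the median intensity, each of the 4 groups of 6 arrays was searched for an array far from the other 5. The gap to the nearest array on the log2 scale (for the median, on the linear scale), as a share of the whole range, was above Dixon's critical value of 0.625 in 16 of 412 groups, and chance alone gives about 1 in 20. In miR-28 cells at 12 h, TRUB1 had a share of 0.735 (array B2 at 995 against 1356 to 1516), DNAJA2 one of 0.689 (B2 at 955 against 1327 to 1539) and CASP2 one of 0.694 (B2 at 3013 against 3326 to 3474). CLEC2B had 0.682 (A1 at 980.4 against 1561 to 1939) and TRAM2 0.683 (A3 at 93.9 against 196 to 273). DICER1 had 0.755 (A2 at 3101 against 4095 to 4483) and REC8 0.645 (A2 at 1568 against 1959 to 2214). MREG had 0.665 (B1 at 490.4 against 601 to 666) and TP53INP1 0.724 (B1 at 647 against 759 to 806). In miR-28 cells at 24 h, SRPRB had 0.825 (B2 at 2579 against 2841 to 2899.8) and OTUB1 0.668 (B2 at 3690.2 against 2691 to 2989). In control cells at 12 h, RAP1B had 0.658 (A2 at 18449 against 14584 to 15804) and CASP8 0.82 (B1 at 1773 against 1106 to 1204.5). In control cells at 24 h, BAG1 had 0.66 (B2 at 4775 against 3969 to 4227), EZH2 0.742 (B2 at 4057 against 3149.9 to 3363) and EDEM1 0.67 (B2 at 2432 against 1808 to 1994). Array B2 of miR-28 at 12 h and array B2 of control at 24 h, which hold 6 of the 16, are the arrays with a high ACTB ratio.

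Probe sets without exactly 1 gene symbol were not used for genes. Of 5263 such probe sets above the filter, 69 were called over both times (33 higher and 36 lower, 1.31%) in a fit over all 27306 probe sets, of which 736 were called.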

How the results depend on the processing

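The limits are the 2 populations a genotype, induced cells on all arrays and the wide errors of dim genes. Against 582 calls (303 rises, 279 falls), quantile normalization, pseudocounts of 1 and 32, a filter at the 75th percentile, an intensity trend, a group-means model, a random block for population and the mean of all probe sets gave counts within 1.5 times. With the replicate number as a replicate block limma called 641 (331 and 310); the numbers are not known to pair arrays. Leaving out each array in turn gave 443 to 593 calls, 222 to 314 rises, 218 to 292 falls and 405 to 498 shared genes, and calls in a list moved by up to 5. Fewer arrays gave fewer calls: 13 (6 and 7) at 12 h alone and 313 (138 and 175) at 24 h alone; 248 (110 and 138) without control population A and 341 (175 and 166) without B; 203 (86 and 117) without miR-28 population A and 184 (85 and 99) without B; 83 (50 and 33) with population A alone and 85 (37 and 48) with B alone; 119 (51 and 68) with miR-28 B against control A and 48 (22 and 26) with miR-28 A against control B. With population means as the unit limma called 0 (0 and 0; 1361 at an unadjusted p under 0.05). Median centring gave 367 (209 and 158; 324 shared) and no filter on low values 287 (138 and 149; 271 shared); for the first the cause was not tested, and the second tests all 19775 genes. All shared genes kept their sign in each of these except the mean of all probe sets. With that mean 498 of 501 kept it, but only 337 were still called. Where the arrays are a subset, the choice of shared genes fixes the sign. Of the named genes only some that were not called reversed: N4BP1 at 12 h (-0.0373), without miR-28 population A (-0.0456), with population B alone (-0.0290) and with miR-28 B against control A (-0.0623); HOXB3 at 12 h (-0.0311), without control population A (-0.0554), without miR-28 population B (-0.0414) and with miR-28 A against control B (-0.17); OTUB1 with population A alone (-0.0129) and with the mean of its probe sets (-0.0347); NME1 with miR-28 B against control A (-0.0149). The cause of these was not tested.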

Other observations

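Further genes whose 6 miR-28 arrays lay on the same side of all 6 control arrays at both times, out of the 45 found among 11380, are given as values; they were named after these were seen. Kinase genes among those that fell were STK26 (-0.58 ± 0.08), STK35 (-0.56 ± 0.06) and MAPK6 (-0.50 ± 0.06), each a log2 fold change over both times ± SE. Genes of RNA handling were REXO2, a nuclease for short RNAs in mitochondria (-0.64 ± 0.10), SNUPN, which carries spliceosomal particles into the nucleus (-0.48 ± 0.06), and NXT2, a cofactor of messenger RNA export (-0.60 ± 0.07). Falls in genes of the actin cytoskeleton and its anchors were LCP1, an actin-bundling protein of leukocytes (-0.43 ± 0.06), and the tensin gene TNS3 (-0.53 ± 0.07). The ER lectin gene MLEC (-0.46 ± 0.06), the zinc and iron carrier SLC39A14 (-0.44 ± 0.06) and DCTPP1, which clears modified nucleotides (-0.37 ± 0.05), fell as well. Among those that rose were TSC22D3, a gene induced by glucocorticoids (0.46 ± 0.07), the PDZ and LIM domain gene PDLIM1 (0.42 ± 0.06), the syntenin gene SDCBP (0.26 ± 0.04) and the phosphatase gene CTDSP2 (0.24 ± 0.04). In this set 29 of the 45 fell, where 279 of the 582 called genes did.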
